A study of Homo sapiens with 20 samples.

Results

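The genes described here encode the proteins of the cytosolic ribosome. They were taken from the gene table by name, as every gene called RPL or RPS followed by a number (with an optional A, X or L ending and a further number) together with RPSA, RPLP0, RPLP1 and RPLP2, provided that at least 1000 counts were summed over the 20 libraries. Of the 60719 genes listed, 84 had such a name and 82 passed the minimum, 32 of the small subunit and 50 of the large subunit. The genes left out were RPL10L with 12.8 summed counts and RPL3L with 197. The members nearest to the minimum were RPL26L1 with 13457 counts, RPS27L with 14403, RPL39L with 16622 and RPL22L1 with 16967, so no gene lay close to it on either side. All 82 members also passed the filter on low counts used for testing.

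RNA was sequenced from the Jurkat T lymphoblast line, an established human leukemia line used as a model of T cell receptor signaling, and from JinB8, a somatic mutant of Jurkat that lacks surface CD47. WT denotes Jurkat and CD47- denotes JinB8, a line obtained as a mutant rather than by a targeted deletion, so that CD47 status and any other difference between these cell lines cannot be told apart. Cells of both lines were kept in serum-free medium with insulin, transferrin, selenite and hydrocortisone, and were left untreated (1 h), given immobilized anti-CD3 with anti-CD28 at 4 µg/ml (CD3+CD28), given the same antibodies with thrombospondin-1 at 1 µg/ml (CD3+CD28+TSP1), or given thrombospondin-1 alone (TSP1), each of the latter for 1, 3 or 6 h. TSP1 is a secreted matricellular protein and a ligand of CD47. Each of the 10 conditions per line was sequenced once, so the tests below use other treatments or times as the replicates of a line. In the tests between the lines over all 20 libraries, the p-values measure the spread between those single libraries. In the tests by time and of treatments, they measure the spread left by a model with treatment and time terms in each line.

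Each ribosome holds one copy of most of these proteins, and the amounts made of them are matched to each other, to rRNA and to cell growth. Their mRNAs are abundant, short and stable, and most begin with a 5′ terminal oligopyrimidine (TOP) tract, a C at the cap followed by a run of pyrimidines, through which mTOR-dependent signaling adjusts their translation and, by way of LARP1, their stability. T cell activation is known to raise growth and ribosome production. Several members have a paralog that is thought to take the place of the common protein in some tissues or cell states.

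The start of the transcript is shown first, because the TOP tract is the sequence feature that defines this gene class. Promoter windows from RefSeq (GRCh38.p14) were found for 66 of the 82 members, and each sequence below runs 5′ to 3′ from 10 bases before the annotated start over 30 bases in all. Capitals mark the pyrimidine tract that begins with C at the annotated start and goes on for at least 4 more pyrimidines (C or T), read on the strand of the gene. RPLP1 and RPL28 are shown as the members that differed most between the lines. RPLP0 and RPSA are shown as 2 of the members whose levels did not overlap between the lines. RPS27 is shown as the highest member per kilobase, and RPL13A and RPS9 as members of the time comparisons. RPL39 is shown for the longest tract, and RPL22L1, RPL26L1 and RPL7L1 as paralogs.
RPLP1 (chr15:69452808-69452837, plus strand): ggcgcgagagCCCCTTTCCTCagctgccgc
RPLP0 (chr12:120201092-120201121, minus strand): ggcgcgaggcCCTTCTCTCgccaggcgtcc
RPSA (chr3:39406710-39406739, plus strand): tgccgcctgtCTTTTCCgtgctacctgcag
RPS27 (chr1:153990752-153990781, plus strand): cgctttcgctCCTTTCCggcggtgacgacc
RPS9 (chr19:54200848-54200877, plus strand): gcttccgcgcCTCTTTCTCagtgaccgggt
RPL28 (chr19:55385922-55385951, plus strand): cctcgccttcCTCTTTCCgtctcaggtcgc
RPL13A (chr19:49487598-49487627, plus strand): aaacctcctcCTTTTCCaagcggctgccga
RPL39 (chrX:119791611-119791640, minus strand): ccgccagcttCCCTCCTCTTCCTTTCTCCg
RPL22L1 (chr3:170870176-170870205, minus strand): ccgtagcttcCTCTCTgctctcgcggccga
RPL26L1 (chr5:172958719-172958748, plus strand): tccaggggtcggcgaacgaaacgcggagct
RPL7L1 (chr6:42879606-42879635, plus strand): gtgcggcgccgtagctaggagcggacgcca

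A tract of this kind stood at an annotated start of 47 of the 66 members (71.2%), with a length of 5 to 19 bases and a median of 8 bases. Over all 27305 genes with a window it was found in 1404 (5.14%). Only the given strand was searched, a gene counted when any of its annotated starts held the tract, and a match describes these letters, not a start measured in these cells. The tract was found in 1 of the 4 paralogs with a window, RPL22L1, and the windows of RPL26L1 and RPL7L1 held none.

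The 20 libraries held 16107921 to 31737616 counts assigned to genes. CD47 itself was measured at 253 to 372 CPM (counts scaled to the effective size of the library) in WT cells and at 124 to 165 CPM in CD47- cells, without overlap, so the mutant line still held CD47 transcripts. All 12 T cell markers examined were at 1 CPM or more in every library, whereas 2 of 20 markers of other cell types were (CD79A and COL1A1). The summed level of those 20 markers was 44.9 to 68.3 CPM in WT and 26.0 to 37.0 CPM in CD47- libraries, and their part in the results was not tested. The CD47- library given CD3+CD28+TSP1 for 3 h had the fewest counts and stood apart. By library totals alone, without scaling to the effective size, 15177 genes reached 1 CPM there against 13683 to 14405 in the other libraries. Whether this gap holds on the scaled CPM was not tested. Transcripts of other genes longer than 4 kb took 39.3% of the counts of this library against 29.0 to 34.9%. Those under 1 kb took 17.0% against 18.1 to 25.9%. This library is called the outlying library, and the main counts of members are given with and without it. So are the differences between the lines of members that passed the test over all libraries.

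The 82 genes together took 5.35 to 8.78% of all counts. The share was 7.81% ± 0.50 in WT (SD, n = 10) and 7.22% ± 0.70 in CD47- libraries (SD, n = 10), a ratio of 0.925. At 1 h the WT libraries stood at 7.48% (untreated), 8.78% (CD3+CD28), 8.30% (CD3+CD28+TSP1) and 8.21% (TSP1), and the CD47- libraries at 7.80, 7.60, 7.55 and 7.50% in the same order. The untreated library was thus the lowest of the WT libraries and the highest of the CD47- libraries at that time as a share. As TMM-scaled CPM summed over the members it was again the lowest in WT cells, at 76894 CPM, but not the highest in CD47- cells, where it stood at 74938 CPM against 75606, 75695 and 73680 CPM.

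At 3 h the shares were 7.62, 7.84 and 7.93% in WT and 7.02, 5.35 and 7.05% in CD47- cells (CD3+CD28, CD3+CD28+TSP1 and TSP1), the 5.35% being the outlying library. At 6 h they were 7.20, 7.35 and 7.38% in WT and 7.42, 7.46 and 7.46% in CD47- cells, so that every CD47- library lay above every WT library, the reverse of 3 h. On the scale of TMM-scaled CPM summed over the members the lines overlapped at 6 h, with 75292, 76160 and 76451 CPM in WT and 75072, 72199 and 76190 CPM in CD47- cells. The WT mean was 8.19% ± 0.53 (SD, n = 4) at 1 h, 7.80% ± 0.16 (SD, n = 3) at 3 h and 7.31% ± 0.098 (SD, n = 3) at 6 h, whereas the CD47- mean at 6 h, 7.45% ± 0.020 (SD, n = 3), was near that at 1 h, 7.61% ± 0.13 (SD, n = 4). Without the outlying library the CD47- share was 7.43% ± 0.25 (SD, n = 9). At this depth the exact binomial 95% interval of a share was at most 0.0114 percentage points to either side, which covers counting error only. A share is a part of a whole, and in bulk RNA fewer cells with these mRNAs and less of them per cell cannot be told apart.

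**Figure D1:**
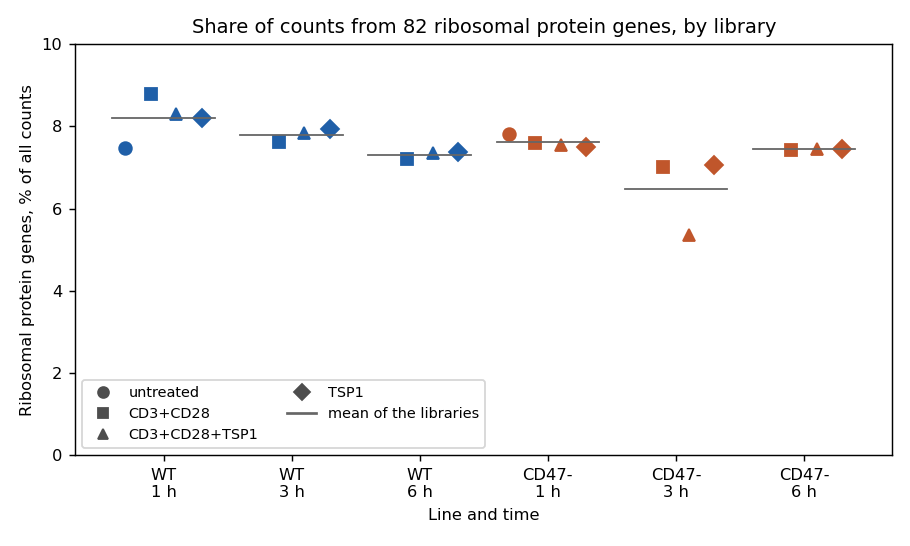
Share of all counts taken by the 82 ribosomal protein genes in each of the 20 libraries, in percent, by line and time, with treatments as symbols and grey lines for means. The WT libraries run from 7.20 to 8.78% and the CD47- libraries from 7.02 to 7.80%, apart from the outlying CD47- library at 5.35%.

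Levels between genes were compared as TMM-scaled CPM per kilobase, summing each isoform's counts over its own length. On that scale the 77 members other than paralogs lay between 278 and 3895 CPM per kilobase with a median of 1322, a 14.0-fold range. RPS27, a zinc finger protein of the small subunit, stood highest at 3895. RPS18 was also among the highest at 2960 CPM per kilobase, and RPL22 stood lowest of the 77 at 278. The 5 paralogs lay between 33.2 and 76.8 CPM per kilobase, all below the 77 others, with RPL39L at 48.2, RPL26L1 at 39.6 and RPS27L at 33.2 the lowest of all. The order at the low end depended on the length used: by the length of the main isoform RPL28 was the lowest of the 77, at 76.9 CPM per kilobase, and by the longest transcript RPL28 (57.6) and RPS29 (49.4) lay below the paralog RPL7L1 (61.5). Reads of members can also be divided with processed pseudogenes, which took 0.0392 to 0.0496% of the counts, and those of RPL17 and RPL36A with overlapping readthrough genes, so single values hold some uncertainty of assignment.

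Within a line most members were steady. The coefficient of variation of the CPM of a gene over the WT libraries had a median of 11.8% over members, from 5.28% for RPL38 to 29.9% for RPL26L1. Over the CD47- libraries the median was 15.7%, and 8.66% without the outlying library. RPL26L1 and RPL7L1 had the highest coefficients in WT cells.

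**Figure D2:**
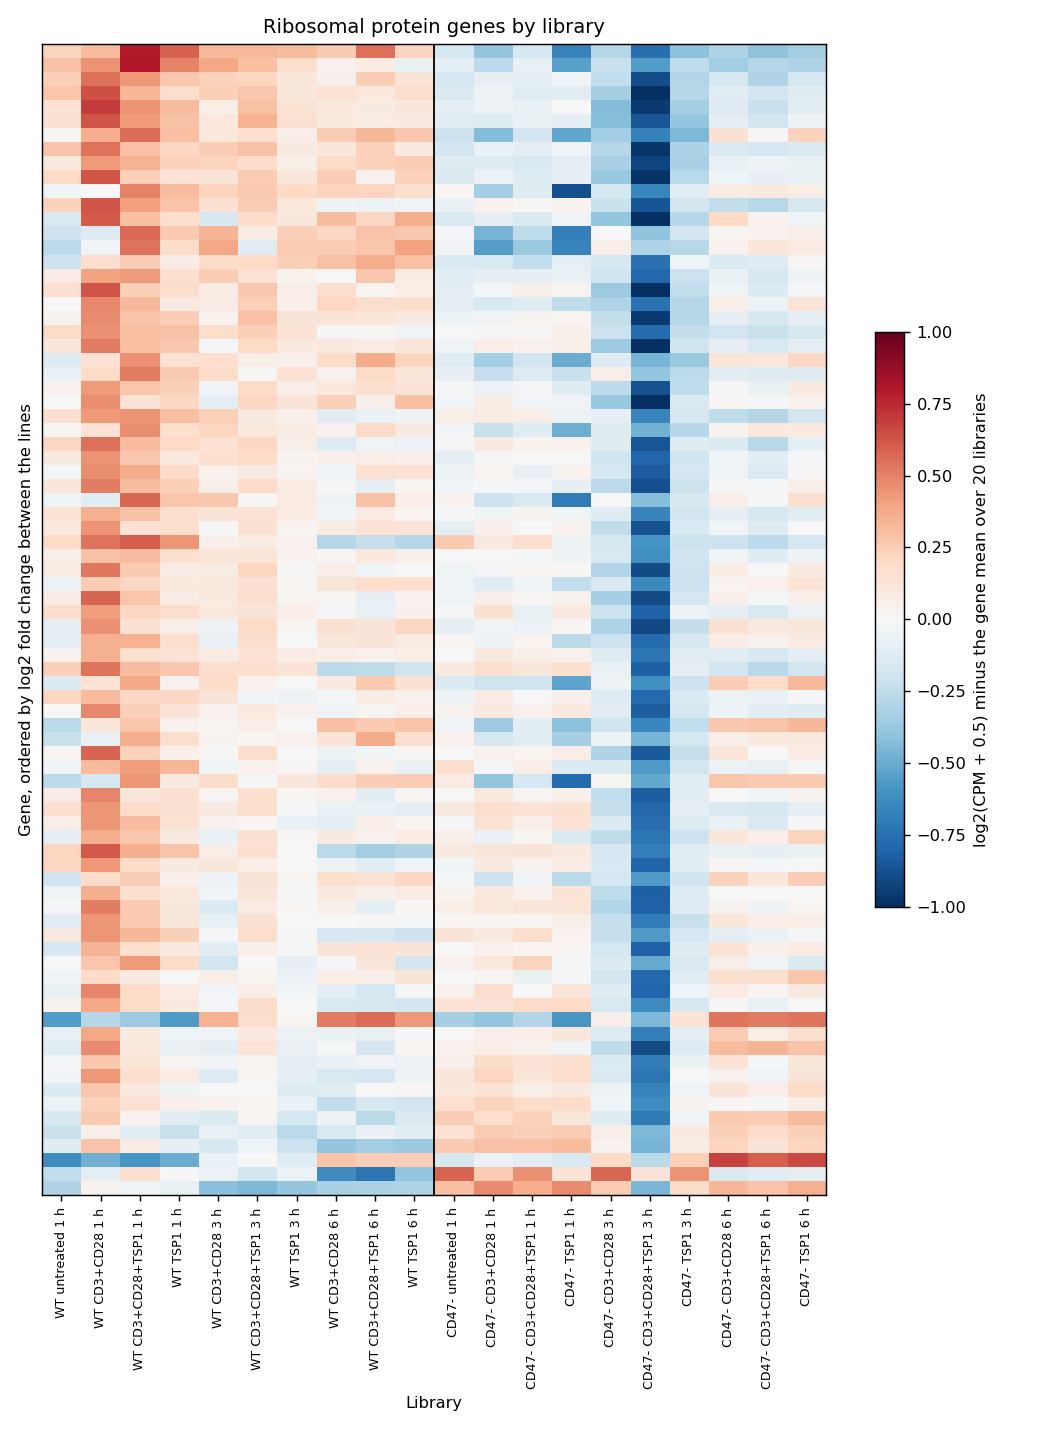
Log2 of CPM + 0.5 for each of the 82 members relative to its mean over the 20 libraries, with genes in the vertical direction, ordered by the difference between the lines, and libraries in the horizontal direction. The outlying CD47- library (CD3+CD28+TSP1, 3 h) is the lowest library for 72 of the 82 members.

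The outlying library was examined before the comparisons, since it carried the lowest values. For 72 of the 82 members it was the lowest of all 20 libraries, against 13.4% of all tested genes, and the CD47- library given TSP1 for 1 h was the lowest for 8 others. Compared with the mean of the other CD47- libraries at 3 h, all 82 members were lower there, by a median log2 difference of -0.59 and from -0.85 for RPL39 to -0.20 for RPS15. The medians were -0.61 in the small and -0.56 in the large subunit. With library totals in place of TMM factors (factors that align most genes between libraries) all 82 were still lower, with a median of -0.43.

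The other tested genes had a median difference of -0.025 in that library. It ran from -0.16 for other genes under 1 kb to 0.12 for those over 4 kb, and was -0.45 for the 81 other genes under 1 kb that are expressed at the level of the members. Over 1 kb, the 395 other genes at that level had a median of -0.28. Members under 600 bases had a median of -0.63, those of 600 to 1000 bases -0.52, and those over 1000 bases -0.55. By GC content the medians were -0.65 in the class of members lowest in GC, -0.62 in the middle class and -0.41 in the class highest in GC, the 82 members being split into 3 classes. Transcript length, expression level and GC content thus moved with the difference, and their part in it was not tested. The corresponding WT library (CD3+CD28+TSP1, 3 h) differed from its neighbours by 0.09, in the other direction.

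Between the lines, 39 members were lower in CD47- cells and 4 were higher by edgeR's quasi-likelihood test over all 20 libraries (adjusted p under 0.05), where 20.6% of all tested genes were called lower and 19.8% higher. As shares of the members these were 47.6% and 4.88%. The median log2 difference over the 82 members, as CD47- minus WT, was -0.23, with 74 of 82 below 0. Members called lower numbered 19 of the 32 small subunit members and 20 of the 50 large subunit members. Without the outlying library the median was -0.15, with 37 lower (20.5% of all tested genes) and 6 higher (21.3%), and the 37 were all among the 39. With library totals alone the median was -0.13, with 28 lower and 6 higher. With limma voom and quantile scaling it was -0.09, with 24 lower and 8 higher. The median was below 0 under each of the other scalings tried. The shares of all genes called under these scalings were not compared.

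For 11 members every CD47- library lay below every WT library (5.48% of all tested genes did so), and for none did every CD47- library lie above (6.01% of all tested genes did so). Among the members below were RPL11, RPL23A, RPL24, RPL36A, RPLP0, RPLP1, RPS23, RPS26 and RPSA. In matched pairs of the same treatment and time 31 members were lower in CD47- cells in all 10 pairs and 1, RPL39L, was higher in all 10. Of all tested genes 16.1% were lower and 15.6% higher in all 10 pairs.

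Of the stalk proteins, which recruit translation factors to the large subunit, RPLP1 was the member with the largest difference. The lowest, median and highest RPLP1 values were 619, 665 and 925 CPM in WT libraries and 315, 413 and 473 CPM in CD47- libraries. The lines did not overlap, and RPLP1 was lower in CD47- cells by a log2 difference of -0.78 ± 0.088 (SE, n = 10 per line, adjusted p = 1.83e-07), or -0.73 without the outlying library. The differences between the lines that follow are on the same log2 scale. RPLP0, the protein that anchors the stalk, ran from 2121 CPM through a median of 2235 to 3116 CPM in WT and from 1109.7 through 1859 to 1939 CPM in CD47- libraries. It was also lower without overlap, at -0.47 ± 0.098 (SE, adjusted p = 0.000525), and at -0.39 without the outlying library. RPLP2, the partner of RPLP1 in the stalk dimer, ran from 446 through 555 to 674 CPM and from 377 through 492 to 558 CPM, and its difference of -0.20 ± 0.086 (SE) overlapped and did not pass (adjusted p = 0.0667), nor did that of -0.15 without the outlying library. In the fit with matched pairs of the same treatment and time as a block it was called lower, at -0.20 (adjusted p = 0.036, edgeR).

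Among small subunit members, RPSA, a ribosomal protein also known as the laminin receptor, ran from 1205 through 1272 to 1869 CPM in WT and from 594 through 1062 to 1152 CPM in CD47- libraries. It was lower without overlap, at -0.47 ± 0.107 (SE, adjusted p = 0.00108), and at -0.39 without the outlying library.

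RPS26, which lies at the mRNA exit channel, was lower without overlap, with 492 to 656 CPM in WT and 283 to 471 CPM in CD47- libraries (log2 difference -0.36, or -0.29 without the outlying library). RPS27A, which is made as a fusion with ubiquitin, was lower, at -0.26 (-0.18 without that library), with an overlap between 975 and 1011 CPM, and lost its call with limma voom, library totals, no filter on low counts, or without WT cells given CD3+CD28 for 1 h. RPS26 is one of the members mutated in Diamond-Blackfan anemia. The members linked to that disease were not compared as a list. RPS19 (-0.16) and RPS24 (-0.17), also of the small subunit, did not pass. RPS6, the substrate of the S6 kinases, ran from 2109 through 2213 to 2712 CPM in WT and from 1385 through 2384 to 2547 CPM in CD47- libraries. Its lines overlapped almost wholly and its difference of -0.01 ± 0.089 (SE) did not pass (adjusted p = 0.926).

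Among large subunit members, RPL28 ran from 298 through 385 to 548 CPM in WT and from 213 through 259.9 to 298 CPM in CD47- libraries. The highest CD47- library just reached the lowest WT library, and RPL28 was lower, at -0.60 ± 0.096 (SE, adjusted p = 2.52e-05), or -0.56 without the outlying library. RPL36A ran from 695 through 745 to 1008 CPM and from 320.0 through 588 to 623 CPM. It was lower without overlap, at -0.48 ± 0.098 (SE, adjusted p = 0.0004), and at -0.40 without the outlying library.

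RPL5 and RPL11 bind 5S rRNA together, and free of the ribosome both bind MDM2. RPL11 ran from 1215 through 1351 to 1669 CPM in WT and from 584 through 1024 to 1115 CPM in CD47- libraries, and was lower without overlap, at -0.47 ± 0.093 (SE, adjusted p = 0.000315), or -0.38 without the outlying library. RPL5 ran from 1041 through 1225 to 1455 CPM and from 805 through 1281 to 1456 CPM, and its difference of 0.06 ± 0.090 (SE) did not pass (adjusted p = 0.653). RPL41, the smallest of the ribosomal proteins, had a difference of -0.02 and did not pass. Whether RPL5 and RPL11 differ from each other in this respect was not tested.

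The paralogs were described as pairs. RPL22L1 ran from 25.1 through 27.7 to 35.5 CPM in WT and from 25.1 through 43.1 to 48.2 CPM in CD47- libraries, the lowest CD47- value being the outlying library and the next 39.4 CPM. It was higher in CD47- cells by 0.53 ± 0.098 (SE, adjusted p = 0.000133), and by 0.61 without that library, when the lines no longer overlapped. RPL22, its common counterpart, ran from 513 through 570.0 to 662 CPM and from 309.5 through 511 to 561 CPM, with a difference of -0.21 ± 0.086 (SE) that did not pass (adjusted p = 0.0555), nor did that of -0.13 without the outlying library. RPL22 was called lower with the pairs as a block, at -0.22 (adjusted p = 0.0122).

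RPL39L ran from 20.3 through 30.7 to 38.0 CPM in WT and from 30.7 through 38.9 to 50.9 CPM in CD47- libraries. It was higher in CD47- cells in 10 of 10 pairs, by 0.45 ± 0.123 (SE, adjusted p = 0.00475), whereas RPL39 was lower, at -0.30 ± 0.113 (SE, adjusted p = 0.0373). RPS27L, a p53-responsive paralog, was lower, at -0.37 ± 0.086 (SE, adjusted p = 0.00126), with 25.6 to 38.3 CPM in WT and 17.5 to 30.0 CPM in CD47- libraries, and RPS27 was lower, at -0.36 ± 0.110 (SE, adjusted p = 0.0123). Both members of that pair were thus lower. With the outlying library left out the values were 0.49 for RPL39L, -0.21 for RPL39, -0.30 for RPS27L and -0.27 for RPS27, all still called. RPL39 lost its call in 11 of 29 alternatives: limma voom, library totals, no filter on low counts, and leaving out any one of 8 libraries (in WT cells CD3+CD28, CD3+CD28+TSP1 or TSP1 at 1 h, CD3+CD28+TSP1 at 3 h, and CD3+CD28 or TSP1 at 6 h, and in CD47- cells CD3+CD28 or TSP1 at 3 h). RPL39L, RPS27L and RPS27 kept theirs in all 29.

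RPL7L1 ran from 174 through 250.2 to 323 CPM and from 221 through 280.0 to 427 CPM, and its difference of 0.33 did not pass over all libraries (adjusted p = 0.0952), while it was called higher without the outlying library, at 0.39, and with the pairs as a block, at 0.32 (adjusted p = 0.00104). RPL26L1 differed by -0.05 and did not pass, and RPL26 was lower, at -0.28 ± 0.103 (SE, adjusted p = 0.032). RPL3, RPL7 and RPL10 had differences of -0.14, -0.19 and -0.15 and did not pass. The other members called higher were RPL12 (0.27) and RPL6 (0.26), each higher in 9 of 10 pairs. With the outlying library left out RPL26, RPL12 and RPL6 stood at -0.20, 0.35 and 0.33 and were still called. RPL26 lost its call in 7 of 29 alternatives (library totals, no filter on low counts, and leaving out WT cells given CD3+CD28, CD3+CD28+TSP1 or TSP1 for 1 h or CD3+CD28+TSP1 for 3 h, or CD47- cells given CD3+CD28+TSP1 for 6 h). RPL12 lost its call in 3 (no filter, and leaving out WT cells given CD3+CD28+TSP1 or TSP1 for 6 h), and RPL6 in none.

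**Figure D3:**
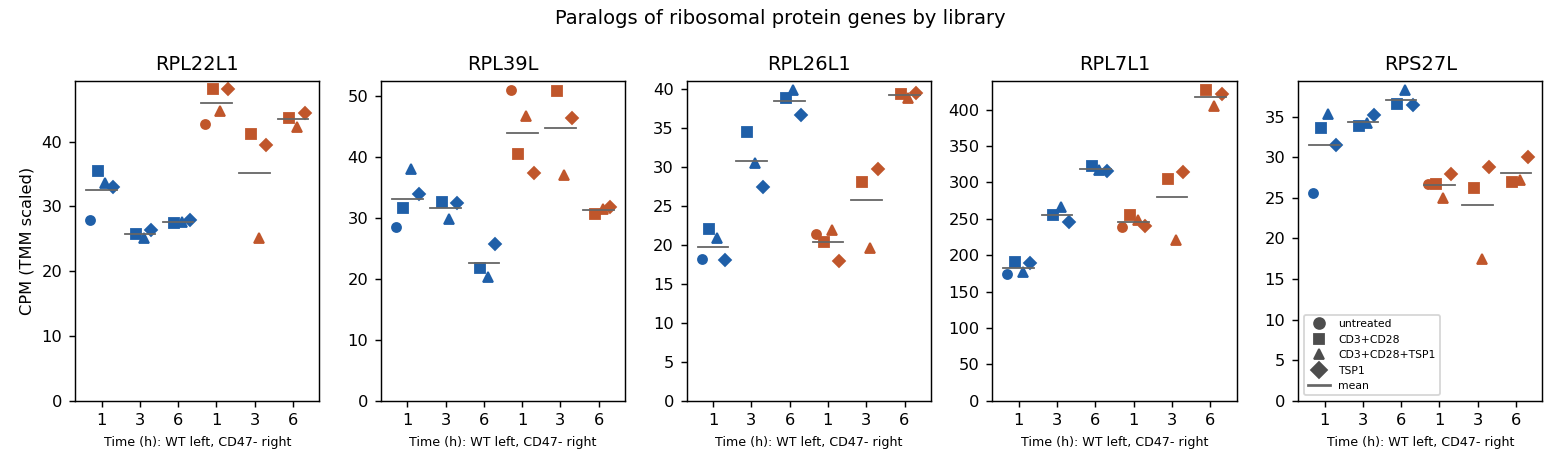
TMM-scaled CPM of the 5 paralogs in each library, by line and time (h), with treatments as symbols and grey lines for means. RPL22L1 and RPL39L lie higher in CD47- libraries, whereas RPL26L1 and RPL7L1 rise with time in both lines.

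The difference between the lines was then taken at each time from one model with a coefficient for each treatment and time in each line. At 1 h 37 members were lower in CD47- cells (24.0% of tested genes) and 5 higher (25.1%), with a median of -0.24. At 3 h 64 were lower (23.2%) and 2 higher (23.3%), with a median of -0.42, and without the outlying library 43 were lower (21.1%) and 4 higher (25.2%), with a median of -0.23. At 6 h 5 were lower (24.5%) and 6 higher (22.8%), with a median of -0.06. When that library was left out the counts were 53 lower (26.5%) and 6 higher (29.6%) at 1 h, and 15 lower (27.7%) and 10 higher (27.1%) at 6 h.

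The count of lower members was thus above the share of all genes at 1 and 3 h and below it at 6 h. The 1 h value is a mean over 4 treatments, and in the untreated pair the CD47- share of counts (7.80%) lay above the WT share (7.48%), with scaled sums of 74938 and 76894 CPM. The 5 members that were lower at 6 h included RPLP1 (-0.69), RPS27L (-0.40), RPL28 (-0.33) and RPL23A (-0.29). The 6 that were higher at 6 h included RPL22L1 (0.65), RPL12 (0.55), RPL39L (0.48), RPL7L1 (0.39) and RPL6 (0.33).

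**Figure D4:**
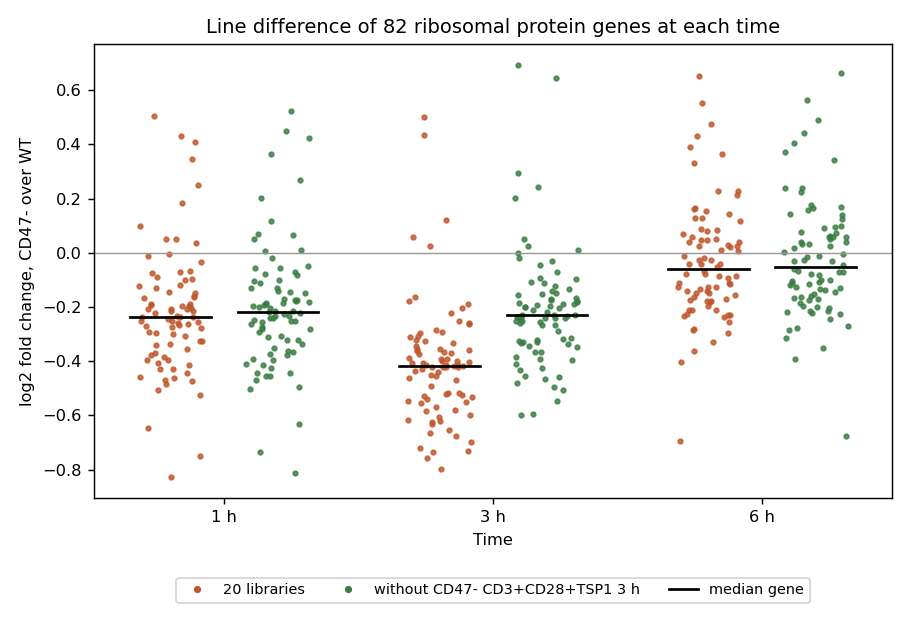
Log2 difference between the lines (CD47- minus WT) for the 82 members at 1, 3 and 6 h, with and without the outlying library, each point being a gene and the bar the median. The medians are -0.24, -0.42 and -0.06 with all libraries, and -0.22, -0.23 and -0.05 without the outlying library.

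In WT cells 27 members were lower at 6 h than at 1 h (24.8% of all tested genes were) and 2 were higher (25.7%), with a median log2 change of -0.22. As a share of the members, 32.9% were lower, so the count was not far from that of all genes in this fit. On leaving out single libraries it ran from 13 to 50, so this nearness depended on the libraries used. The change was below 0 in 72 of the 82 members, and in 53 by limma voom. In each of the 3 treatments 55 of the 82 members had a lower and 3 a higher value at 6 h, against 36.3% and 36.6% of all tested genes. RPL13A, a large subunit protein that also takes part in the interferon-induced GAIT complex, stood at 1588, 2012, 2103 and 1875 CPM in WT cells at 1 h (untreated, CD3+CD28, CD3+CD28+TSP1 and TSP1), at 1432, 1458 and 1423 CPM at 3 h, and at 1135, 1179 and 1135 CPM at 6 h. No 6 h library reached the lowest 1 h library, and RPL13A fell by 0.80 ± 0.099 on the log2 scale (SE, adjusted p = 1.45e-05).

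RPL4, a core protein that lines the exit tunnel, stood at 1978, 2604, 2187 and 2074 CPM at 1 h and at 1413, 1337 and 1381 CPM at 6 h in WT cells. It fell by 0.73 ± 0.114 (log2, SE, adjusted p = 0.000112) without overlap. RPL39L (-0.62), RPL17 (-0.61), RPL28 (-0.57) and RPL3 (-0.52) also fell. The number of members called lower changed with single libraries: it was 50 without the outlying library (28.3% of tested genes), a CD47- library at 3 h that is in neither group of this contrast, with 2 higher (29.0%), and it dropped to 13 on leaving out WT cells given CD3+CD28 for 1 h, to 14 on leaving out those given CD3+CD28+TSP1 for 6 h and to 15 on leaving out those given CD3+CD28 for 6 h. The WT library given CD3+CD28 for 1 h was the highest of all 20 for 51 members.

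The 2 members that rose in WT cells were paralogs. RPL26L1 stood at 18.1, 22.0, 20.9 and 18.0 CPM at 1 h, at 34.4, 30.5 and 27.3 CPM at 3 h, and at 38.8, 39.9 and 36.6 CPM at 6 h. RPL7L1, whose yeast relative takes part in the making of the large subunit, stood at 174, 191, 177 and 189 CPM at 1 h and at 323, 317 and 316 CPM at 6 h. Neither overlapped between 1 and 6 h, with log2 changes of 0.92 ± 0.124 for RPL26L1 (SE, adjusted p = 2.89e-05) and 0.78 ± 0.091 for RPL7L1 (SE, adjusted p = 8.62e-06).

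In CD47- cells 14 members were higher at 6 h than at 1 h (26.0% of all tested genes were) and 4 were lower (27.0%), with a median of -0.03. These were 17.1% and 4.88% of the members, fewer than of all genes in both directions. The counts were 18 higher (28.8%) and 13 lower (30.0%) when the outlying library was left out. Of the lower members 0 were called on leaving out the CD47- library given CD3+CD28+TSP1 for 1 h or that given CD3+CD28 for 6 h, and 1 on leaving out that given TSP1 for 6 h. The median was close to 0 and took either sign with the scaling, at 0.01 with upper-quartile factors and 0.05 with limma voom. The paralogs RPL26L1 (0.96) and RPL7L1 (0.75) rose here as well, with 17.9 to 21.9 CPM at 1 h and 38.8 to 39.4 CPM at 6 h for RPL26L1, without overlap.

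RPS15, a small subunit protein near the decoding center, stood at 301, 209, 238 and 193 CPM in CD47- cells at 1 h (untreated, CD3+CD28, CD3+CD28+TSP1 and TSP1) and at 316, 333 and 325 CPM at 6 h. The times did not overlap, and RPS15 rose by 0.61 ± 0.152 (log2, SE, adjusted p = 0.00391). Others that rose included RPS9, RPL35, RPL8, RPL18, RPS28, RPL36, RPS19, RPS2 and RPLP2. The members that fell were RPL39L (-0.41), RPL17 (-0.36), RPL13A (-0.29) and RPL15 (-0.27), the last of which lost its call in 16 of 28 alternatives. The count of higher members was 8 without the CD47- library given CD3+CD28 for 1 h, 8 without that given TSP1 for 1 h and 9 without that given TSP1 for 6 h.

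At 3 h against 1 h, 60 members were lower in CD47- cells (73.2% of the members, against 20.1% of tested genes) and 1, RPL26L1, was higher (18.0%), with a median of -0.39. Without the outlying library 30 were lower (18.5%) and 7 higher (18.9%), with a median of -0.20, and without the CD47- library given CD3+CD28+TSP1 for 1 h 15 were lower. With limma voom 17 were lower and 9 higher, with a median of -0.11. RPS12 stood at 911, 979, 966 and 972 CPM at 1 h in CD47- cells and at 727, 463 and 817 CPM at 3 h, the outlying library being the 463. It fell by 0.57 ± 0.133 (log2, SE, adjusted p = 0.00444), and by 0.33 without the outlying library, when it was still called. RPS27 (-0.56), RPSA (-0.53) and RPS4X (-0.52) fell likewise and RPL39 fell by 0.54. With the outlying library left out the values were -0.32, -0.35, -0.32 and -0.27 in that order, and RPL39 was no longer called.

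In WT cells 9 members were lower at 3 h (17.4%) and 2 higher (16.9%), the latter again RPL26L1 and RPL7L1, with a median of -0.19. The change was below 0 in 79 of the 82 members, and in 63 by limma voom. In all 3 treatments 59 of the 82 members had a lower and 2 a higher value at 3 h, against 31.2% and 30.5% of all tested genes. The 5 with the largest fall were RPL13A (-0.47), RPL22L1 (-0.40), RPS16 (-0.39), RPL29 (-0.35) and RPL4 (-0.34). On leaving out the outlying library 41 were lower (22.0%) and 2 higher (21.3%), and the number lower was 4 without WT cells given CD3+CD28 for 1 h, 4 without those given CD3+CD28 for 3 h and 4 without those given TSP1 for 3 h.

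The change from 1 to 6 h was then compared between the lines as a difference of differences. In 78 of 82 members the value was larger (less of a fall or more of a rise) in CD47- than in WT cells, with a median of 0.23, and 7 members (8.54%) passed the test (6.46% of all tested genes did in that direction). They were RPS9 (0.64), RPL35 (0.57), RPL28 (0.54), RPL4 (0.53), RPS2 (0.51), RPL13A (0.51) and RPL8 (0.48). In 61 of the 82 members the difference was positive in all 3 treatments, against 27.0% of all tested genes (30.9% were negative in all 3). When the outlying library was left out 25 passed (10.6%), and over the libraries left out in turn the number ran from 1 to 25. The median was 0.14 without the CD47- library given CD3+CD28+TSP1 for 6 h, 0.15 without that given TSP1 for 1 h, and 0.13 by limma voom, with 71 of 82 above 0. Of the members that passed, RPL28 and RPS2 each lost the call in 12 of 28 alternatives, RPL35 in 10 and RPL4 in 9, and RPS9 in none. RPL13A and RPL8 were not followed in this way, but neither passed where the number fell to 1.

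RPS9, a small subunit protein that binds 18S rRNA early, stood at 393, 502, 574 and 480.3 CPM in WT cells at 1 h and at 464, 489 and 469 CPM at 6 h, which overlap. In CD47- cells it stood at 335, 288, 340.2 and 272 CPM at 1 h and at 432, 393 and 457 CPM at 6 h, without overlap. The difference of differences for RPS9 was 0.64 ± 0.142 (SE, adjusted p = 0.00829). RPL4 fell in WT cells as above, whereas in CD47- cells it stood at 1816, 1857, 1859.9 and 1821 CPM at 1 h and at 1622, 1592 and 1618 CPM at 6 h, a change that did not pass.

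For the change from 1 to 3 h no member passed the test of the difference between the lines by edgeR, DESeq2 or limma voom (4.28% of tested genes did by edgeR), whereas 1 was called higher by edgeR without the filter on low counts. By edgeR 1 member had an unadjusted p under 0.05 (1.22% of the members, against 21.6% of all tested genes), and 15 without the outlying library (18.3% against 22.8%), below the share of all genes both times. The median was -0.17 with all libraries and 0.01 without the outlying one.

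GC content moved with the changes at 6 h. The 14 members that rose in CD47- cells had a median GC content of the main transcript of 58.1%, against 49.0% for all members, and 12 of them were in the highest of the 3 GC classes, the others being RPL26L1 and RPL7L1. Of the 14, 8 lie on chromosome 19, which holds 12 of the 82 members. The median change from 1 to 6 h in CD47- cells over members was -0.09 in the lowest GC class, -0.05 in the middle and 0.20 in the highest. All other tested genes, split at the same GC values, had medians of -0.15, -0.03 and 0.21, so a like trend was found outside the set. In WT cells the members had -0.27, -0.22 and -0.16 and the other genes -0.05, 0.00 and 0.07. In the difference of differences the members had 0.19, 0.20 and 0.36 and the other genes -0.10, -0.03 and 0.14. GC content thus moved with the results over all genes, and its part in them was not tested.

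**Figure D5:**
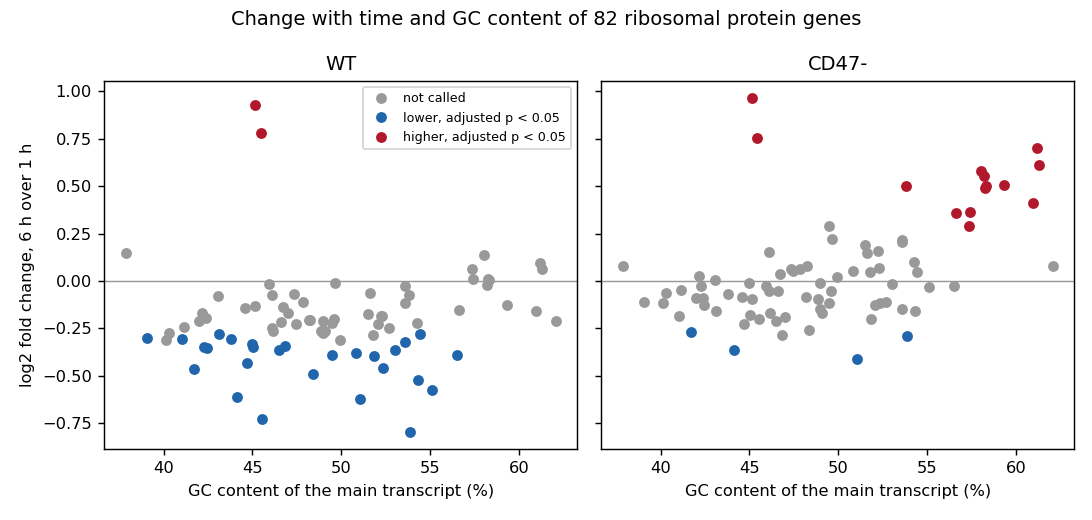
Log2 change from 1 to 6 h against GC content of the main transcript (percent) for the 82 members in WT and CD47- cells, each point being a gene, coloured where it was called higher or lower. In CD47- cells 12 of the 14 members called higher lie in the highest GC class, and in WT cells RPL26L1 and RPL7L1 are the members called higher.

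The difference between members with a TOP tract at an annotated start and members without one was not tested, and their medians are given side by side. They were -0.25 and -0.22 for the difference between the lines, -0.23 and -0.20 for 6 h in WT cells, -0.05 and 0.05 for 6 h in CD47- cells, and -0.60 and -0.57 in the outlying library.

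The treatments were compared within each line in the same model: the antibodies with TSP1 against TSP1 alone, the antibodies with TSP1 against the antibodies alone, and the antibodies or TSP1 against untreated cells. No member was called in any of these 4 comparisons in either line by edgeR, DESeq2 or limma voom. Of all tested genes 0.0919% were called by edgeR in WT cells for the antibodies with TSP1 against TSP1 alone, and 0 in the other 7 contrasts. Untreated cells were sequenced once per line, and the contrasts share libraries with each other, so their values are given side by side.

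Against the untreated library, WT cells given CD3+CD28 had a median log2 difference of 0.28 over the members, with 82 of 82 above 0 and 9 at an unadjusted p under 0.05 by edgeR (20 by DESeq2 and 4 by limma voom). These were 10.98, 24.4 and 4.88% of the members, against 8.32, 6.18 and 7.95% of all tested genes. WT cells given TSP1 had 0.20, with 79 above 0 and 6, 14 and 10 at an unadjusted p under 0.05 in the same order, which is 7.32, 17.1 and 12.2% of the members against 7.14, 5.51 and 6.37% of all genes. By edgeR over all libraries the share in both contrasts was near that of all genes. In CD47- cells the same differences were 0.10 and 0.11, with 0 and 3 members at an unadjusted p under 0.05 by edgeR, where 4.02 and 8.61% of all genes were. With the outlying library left out the CD47- medians were 0.03 and 0.04, with 7 and 14 members (8.54 and 17.1%, against 7.25 and 13.4% of all genes). On leaving out that library 63 members had an unadjusted p under 0.05 for CD3+CD28 in WT cells (76.8% of the members, against 16.6% of all genes), with a median of 0.30, and 32 for TSP1 in WT cells (39.0% against 13.9%), with a median of 0.22, and still none was called.

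TSP1 added to CD3+CD28 had a median of -0.02 over the members in WT cells, with none at an unadjusted p under 0.05 by edgeR, 2 by DESeq2 and 3 by limma voom (2.24, 1.29 and 2.44% of all genes). In CD47- cells it had -0.20, with 82 of 82 below 0 and 11 at an unadjusted p under 0.05 by edgeR (27 by DESeq2 and 8 by limma voom). These were 13.4, 32.9 and 9.76% of the members, against 10.8, 9.10 and 8.95% of all genes. That value rested on the outlying library: without it the median was -0.02, and no member had an unadjusted p under 0.05 (2.93% of all genes had). By edgeR the antibodies with TSP1 against TSP1 alone had a median of 0.08 in WT cells, with 0 at an unadjusted p under 0.05 (5.00% of all genes). In CD47- cells they had -0.22, with 18 (22.0% of the members, against 16.1% of all genes). By DESeq2 38 members had such a p in CD47- cells (46.3% against 13.8%), and by limma voom 11 did (13.4% against 14.1%). In WT cells these counts were 1 (1.22% against 3.63%) and 2 (2.44% against 5.42%). Without the outlying library the CD47- median was -0.03 and the count 2 (2.44% against 9.25%).

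Other genes of the translation machinery, in lists set by name, are given for the same contrasts. Of 31 translation factors and other mRNAs of the TOP class, 19 were lower and 3 higher at 6 h in WT cells and 11 were lower and 5 higher in CD47- cells. Among them EEF1A1, the factor that delivers aminoacyl-tRNA, fell by 0.56 in WT cells (log2, adjusted p = 0.0035), EEF2, the translocation factor, by 0.64, and EIF3E, a subunit of the initiation factor eIF3, by 0.94. Of 12 hosts of small nucleolar RNAs, 6 were lower and 2 higher in WT cells and 3 were lower and 7 higher in CD47- cells. The shares of all tested genes at 6 h were 24.8% lower and 25.7% higher in WT cells and 27.0% lower and 26.0% higher in CD47- cells.

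Mitochondrial ribosomal protein genes and genes for the making of rRNA were mostly higher at 6 h in both lines. Of 78 mitochondrial ribosomal protein genes 55 were higher and 2 lower in WT cells and 53 were higher and 4 lower in CD47- cells. MRPL12, a protein of the mitochondrial large subunit, rose by 0.93 and 1.32. Of 36 genes for RNA polymerase I and rRNA processing 31 were higher and 1 lower in WT cells and 34 were higher and 0 lower in CD47- cells. POLR1B, the second-largest subunit of RNA polymerase I, rose by 1.24 and 1.62, and NOP56, a core box C/D snoRNP protein, by 0.62 and 1.19.

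Between the lines, 6 of the 31 TOP-class genes were lower in CD47- cells and 1 higher, 2 of the 12 small nucleolar RNA hosts were lower and 0 higher, 8 of the 78 mitochondrial ribosomal protein genes were higher and 4 lower, and 5 of the 36 polymerase I and processing genes were higher and 0 lower. Of all tested genes 20.6% were lower and 19.8% higher, so none of these counts exceeded the share of all genes. PABPC1, the cytoplasmic poly(A)-binding protein, was lower, at -0.50 (adjusted p = 0.000347). In the outlying library the median differences of these lists from the other CD47- libraries at 3 h were -0.49, -0.51, -0.40 and -0.26 in the same order, against -0.59 for the 82 members.

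At the level of isoforms, 662 isoforms of the members were tested between the lines and 90 were called, 65 lower and 25 higher in CD47- cells, which is 13.6% of them against 15.1% of all tested isoforms. The share of an isoform within its gene differed for 14 isoforms of 12 members, against 0.647% of all isoforms tested. The clearest case was RPL11-202, an isoform of RPL11 with a retained intron, which took 1.65% ± 0.26 of the RPL11 counts in WT cells (SD, n = 10) and 4.70% ± 0.35 in CD47- cells (SD, n = 10). The WT libraries ran from 1.33 to 2.10% and the CD47- libraries from 4.24 to 5.31%, without overlap, and the log2 change of the isoform relative to that of its gene was 1.52 (adjusted p = 2.82e-07, edgeR's diffSpliceDGE). RPL11 was thus lower as a gene in CD47- cells while this isoform took more of it.

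RPL5-209 was also higher as a share without overlap, with 0.46 to 0.84% of RPL5 counts in WT and 1.06 to 2.09% in CD47- libraries. Its means were 0.63% ± 0.10 and 1.66% ± 0.30 (SD, n = 10 each), and its change relative to that of RPL5 was 1.40 on the log2 scale (adjusted p = 0.000107). RPL11-205 took 0.47% ± 0.37 and 1.44% ± 1.21, and RPS24-206 took 5.24% ± 4.52 and 1.76% ± 1.92 (SD, n = 10 each), with SDs close to or above the means. The value of RPS20-215 rested on few counts, as it took 0.09% ± 0.21 and 1.10% ± 1.52 and was not detected in some libraries of either line. Isoform counts are estimates that divide reads among overlapping transcripts, and several of these differences lie in transcripts that hold a small part of a gene.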

How the data were processed

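RNA from 20 cultures of WT and CD47- Jurkat cells, 10 per line, was measured by paired-end mRNA sequencing. Per the labels and the study's methods, reads were cut with cutadapt 1.18, mapped with STAR 2.4.2a (hg38) and assigned by the authors to genes and isoforms of GENCODE 36 with RSEM 1.3.3. The deposited values are RSEM expected counts, not normalized, which need not be whole because reads shared between transcripts are divided. Ribosomal protein genes have many processed pseudogenes, and reads that fit several copies were divided by that estimate. In the gene file and in the isoform file, 2 columns each matched no sample and were not used.

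Expected counts were rounded for edgeR 4.0.16 (TMM, quasi-likelihood test) and DESeq2 1.42.0, and left unrounded for limma 3.58.1 (R 4.3.3). Genes passing edgeR's filter (minimum count 10, total 15) numbered 16327, and p-values were Benjamini-Hochberg adjusted over all of them, with calls at 0.05. The lines were compared over all 20 libraries, and times, treatments and their differences between lines in a model with a coefficient per line and treatment and terms for 3 and 6 h in each line. Standard errors are the log2 difference divided by the square root of the F statistic. Isoform usage was tested with edgeR's diffSpliceDGE on the isoform counts, with the same filter. Transcript lengths and GC content come from GENCODE 44 and start windows from RefSeq.

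Named genes were, for each comparison, up to 5 per direction with the largest change among those called and moving the same way in every matched pair, and in addition the paralogs and their counterparts, stalk and 5S proteins, RPSA, RPS27A, RPS6, RPS19, RPS24, RPS26, RPL41 and the 3 highest and 3 lowest by level. RPL12, RPL6 and other members named in lists of 5 or more were added to complete a count. Some members that this rule names are not reported here. Members and lists were chosen with earlier results of these data known.

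Alternatives were DESeq2, limma voom with quantile scaling, upper-quartile factors, scaling without the members, library totals alone, other filters on low counts, other minimum counts for membership, a block for pairs of libraries of the same treatment and time, a time term, no treatment terms, and leaving out each library. The level per kilobase summed over isoforms and the split by GC content and chromosome were chosen after seeing the data. Libraries of the same treatment and time, one per line, deviated together with correlations of 0.126 to 0.602 over genes, and a library correlated best with its own partner in 2 of 10 pairs.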

Additional observations from a re-analysis of the deposited data

Results flagged for a closer look

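Of 84 series of values (the named members and the summed shares in each line, 10 libraries each), 33 had a highest or lowest library whose gap to the next, divided by the range of the group, exceeded Dixon's critical value of 0.466 for 10 libraries. Chance does this for about 1 in 20 groups, and members of one library are not independent of each other.

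In CD47- cells 24 of the 33 had the outlying library (CD3+CD28+TSP1, 3 h) at the bottom, with gap ratios of 0.681 for the share of all members, 0.672 for the small and 0.676 for the large subunit. In the small subunit the ratios were 0.512 for RPS12, 0.551 for RPS18, 0.663 for RPS24, 0.731 for RPS26, 0.526 for RPS27, 0.605 for RPS27A, 0.599 for RPS27L, 0.493 for RPS4X, 0.571 for RPS6 and 0.469 for RPSA. In the large subunit they were 0.501 for RPL10, 0.631 for RPL11, 0.467 for RPL17, 0.691 for RPL22, 0.620 for RPL22L1, 0.534 for RPL26, 0.636 for RPL36A, 0.521 for RPL39, 0.577 for RPL4, 0.630 for RPL5 and 0.547 for RPL7.

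In WT cells the library given CD3+CD28 for 1 h stood apart at the top for 8 members, with ratios of 0.582 for RPL11, 0.629 for RPL36A, 0.578 for RPL41, 0.579 for RPL7, 0.478 for RPS24, 0.644 for RPS27, 0.630 for RPS27A and 0.511 for RPS4X, and the library given CD3+CD28+TSP1 for 1 h did so for RPS2 with 0.603. Each of these conditions was sequenced once, so the treatment and the library cannot be told apart.

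The change from 1 to 6 h differed between the lines by the test of the difference itself for RPS9 (0.64), RPL35 (0.57), RPL28 (0.54), RPL4 (0.53), RPL13A (0.51), RPS2 (0.51) and RPL8 (0.48), given as log2 differences of CD47- minus WT. Of all tested genes 6.46% were called in that direction, a share near that of the members. The number of members called was 7 and ran from 1 to 25 with single libraries left out.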

How the results depend on the processing

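No named member that passed the test changed direction under any alternative run. Over 60 pairs of a named member and a comparison (41 members), 1587 values stayed on the same side of the threshold, 106 were weaker and 16 were stronger. The members lower in CD47- cells numbered 39 and were 24 with limma voom and quantile scaling, 58 with a time term, and 33 to 40 with each library left out. With the replicate block, which pairs libraries of the same treatment and time, they numbered 52, and among the members named for the lines RPL22, RPLP2 and RPL7L1 gained a call. The members lower at 6 h in WT cells numbered 27, and were 50 without the filter on low counts and 13 to 50 with each library left out. The members higher at 6 h in CD47- cells numbered 14, and were 23 with limma voom and 8 to 19 with each library left out. The members lower at 3 h in CD47- cells numbered 60, and were 17 with limma voom and 15 to 62 with each library left out. The members lower at 3 h in WT cells numbered 9, and were 17 with DESeq2, 5 with limma voom, 5 with library totals, 36 without the filter, 4 without treatment terms, and 4 to 41 with each library left out. The members with a larger 6 h change in CD47- cells numbered 7, and were 16 with DESeq2, 12 with limma voom, 12 with upper-quartile factors, 24 without the filter, 2 without treatment terms, and 1 to 25 with each library left out. The ratio of shares was 0.925, 0.859 from TMM-scaled CPM and 0.916 to 0.952 with each library left out. Isoforms with changed usage numbered 14, and were 26 with at least 10 counts in every library. For the counts of members called, the share of all tested genes is given for the main fit and without the outlying library only. Under the other alternatives, whether the members or all genes moved was not tested. The causes were not tested. Library totals in place of TMM factors moved CD47- values against WT by 0.11 (log2) for all genes. Each time and line held 3 or 4 single libraries. The effects of that number and of depth on the counts of calls over time were not tested.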
